A study of Mus musculus with 30 samples.

Results

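Hsd11b1, Glul, Nr3c1, Fkbp5, Tsc22d3, Per1 and Sgk1 are 7 genes that make, sense or respond to glucocorticoid hormone, and they were taken by name from the microarray values of 3T3-L1 cells. All 7 of 7 were measured, by 8 probes, among 14763 named genes; Nr3c1 had 2 probes, which were averaged, and the other genes had 1 each. 3T3-L1 is a mouse fibroblast line whose cells can turn into fat cells in culture. The data came from 30 arrays in 10 groups of 3. Each agent was first added 2 days after the cells had become confluent. The medium then held foetal bovine serum, and cells were harvested for RNA on day 10. The solvent control group received 0.1% DMSO. The positive control group, MDI, was given a cocktail for 48 h that held 0.5 mM isobutyl methylxanthine (IBMX), 10 µg/mL insulin and 0.25 µM dexamethasone. It then had insulin alone for 8 days. The other groups received ROSI, TBT, BPA, BBP, DEHP, BP, EB or PP throughout, at doses not given in the sources used here. ROSI commonly stands for rosiglitazone, an agonist of the fat cell regulator PPAR gamma, TBT for tributyltin and BPA for bisphenol A. BBP and DEHP are common names of phthalate esters. BP, EB and PP are not spelled out in the labels. Dexamethasone, a synthetic glucocorticoid, was added in MDI only, and it had been out of the medium for 8 days at harvest. IBMX, dexamethasone and insulin were all added in MDI only, so their parts in any MDI value cannot be told apart.

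Glucocorticoids enter cells and bind the glucocorticoid receptor, the product of Nr3c1, which waits in the cytoplasm in a complex of heat shock proteins. The bound receptor moves to the nucleus and binds DNA elements near its target genes. In fat cells and liver, the product of Hsd11b1, 11 beta-hydroxysteroid dehydrogenase type 1, turns the inert 11-keto steroid into active hormone, so a cell can raise its own exposure. Fkbp5 encodes a cochaperone that lowers the receptor's affinity for hormone, and it is itself a receptor target. Tsc22d3 (also known as Gilz), Per1 and Sgk1 are textbook receptor targets that respond within hours. Tsc22d3 encodes an anti-inflammatory leucine zipper protein, Per1 a repressor of the circadian clock and Sgk1 a kinase that acts on ion transport. Glul encodes glutamine synthetase, which joins ammonia to glutamate, and it is induced by glucocorticoids in muscle and fat.

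The promoter stretches of the genes whose levels varied most, Hsd11b1 and Glul, are given here. Beside them is the 1 promoter, of those searched for 6 of the 7 genes, that held a complete glucocorticoid response element. They are the 250 bases before a RefSeq transcript start (build GRCm38.p6), read 5′ to 3′ on the gene's strand. Hsd11b1 lies at chr1:193242361-193242610 on the minus strand, Glul at chr1:153899679-153899928 on the plus strand and Sgk1 (start 5 of its 6 listed) at chr10:21993640-21993889 on the plus strand. Capitals mark CCAAT in Hsd11b1, CCAAT and ACANNNTGT in Glul, and the full element in Sgk1.
Hsd11b1: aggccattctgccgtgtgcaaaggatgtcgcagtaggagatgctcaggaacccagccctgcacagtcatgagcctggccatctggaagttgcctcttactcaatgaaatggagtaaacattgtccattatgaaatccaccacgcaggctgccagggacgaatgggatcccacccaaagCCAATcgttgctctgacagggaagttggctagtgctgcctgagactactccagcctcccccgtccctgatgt
Glul: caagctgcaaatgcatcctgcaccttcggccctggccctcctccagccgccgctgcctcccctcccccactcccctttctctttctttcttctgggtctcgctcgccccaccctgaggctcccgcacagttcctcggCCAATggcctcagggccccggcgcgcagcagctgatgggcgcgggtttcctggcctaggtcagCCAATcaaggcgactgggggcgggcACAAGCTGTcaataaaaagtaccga
Sgk1: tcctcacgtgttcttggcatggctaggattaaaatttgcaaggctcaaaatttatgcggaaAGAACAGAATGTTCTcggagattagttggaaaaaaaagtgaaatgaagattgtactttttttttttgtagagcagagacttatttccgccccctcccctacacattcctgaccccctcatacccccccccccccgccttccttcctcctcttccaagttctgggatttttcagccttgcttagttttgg
CCAAT began 72 bases before the start in Hsd11b1 and 113 and 50 bases before it in Glul. Promoters of Per1, Fkbp5 and Sgk1 also held CCAAT, on either strand. The core of the receptor's element, ACANNNTGT, was found in Glul as ACAAGCTGT, 25 bases before the start. It was also found at start 2 of Sgk1, outside the stretches shown. The full element, AGAACA and TGTTCT with any 3 bases between them, was found in Sgk1 as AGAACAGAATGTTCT, 189 bases before this start. That match contains the core and, at each end, the shorter element AGAACA on either strand, so these matches overlap. Windows of 300 bases (250 before and 50 after a RefSeq start) were searched for 6 of the 7 genes, 14 windows in all. No window of Nr3c1 was searched, so nothing is said here of its promoter. Of 32851 such windows of the genome, searched on both strands, 3 held the full element (0.00913%), 6.85% the core, 19.0% AGAACA and 37.4% CCAAT. A match is a description of letters, and binding was not measured here.

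All values are log2 ratios of the sample, labelled with Cy3, over a common reference of mixed control and exposed RNA, labelled with Cy5. A value of 0 is therefore the level of the mixture, and a level of one gene is not set against that of another. The median ratio of an array lay between -0.00336 and 0.0139, and arrays of the same group correlated at r of 0.542 to 0.892 over all entries. The mean profiles of DMSO and MDI correlated at r = -0.512, and the signs were left as they are since the dyes are given in the labels. The series record calls the 3 arrays of a group biological replicates without saying whether they came from separate cultures, so p-values measure the spread between these samples. With 3 arrays per group, their number limits the precision. Differences were tested with limma over all 19231 entries, each a named gene or an unnamed probe, and a gene was called where its adjusted p was under 0.05. The comparisons with DMSO share the same 3 DMSO arrays, and those with MDI the same 3 MDI arrays.

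In MDI against DMSO, 3 of the 7 genes were higher (Hsd11b1, Glul and Nr3c1) and 2 were lower (Fkbp5 and Sgk1), where 20.1% of all entries were higher and 18.3% lower. Hsd11b1 and Glul rose by 3.77 and 2.85 on the log2 scale. Nr3c1, Fkbp5 and Sgk1 each moved by at most 0.22, and Tsc22d3 and Per1 were not called. The span between the highest and the lowest group mean separated the genes in the same way. It was 3.77 for Hsd11b1, larger than that of 99.9% of all entries, and 2.85 for Glul, larger than that of 99.6%. For Per1, Sgk1 and Tsc22d3 it was 0.51, 0.49 and 0.48, larger than that of 79.2%, 78.1% and 77% of entries. For Nr3c1 and Fkbp5 it was 0.23, larger than that of 43.2% and 43.4%.

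Hsd11b1, the enzyme that regenerates active glucocorticoid, read -1.61, -1.64 and -1.59 on the DMSO arrays. It read 2.13, 2.10 and 2.24 on the MDI arrays. Every MDI array stood above the reference mixture and every DMSO array far below it. The ROSI arrays read -0.48, -0.48 and -0.32, the BP arrays -0.23, -0.09 and -0.10, and the PP arrays -0.09, -0.05 and -0.07. PP and BP lay nearest to the reference level and ROSI further below it. No array of these 3 groups overlapped with DMSO or MDI. The TBT arrays read -0.87, -0.84 and -0.95, the BPA arrays -0.93, -0.93 and -0.84, and the BBP arrays -1.07, -1.15 and -1.05. They formed a lower step, still above every DMSO array. The EB arrays read -1.32, -1.50 and -1.36, and the DEHP arrays -1.50, -1.61 and -1.49. The DEHP arrays overlapped with the DMSO arrays and the EB arrays did not.

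Against DMSO, Hsd11b1 was 3.77 ± 0.05 (SE) higher in MDI, a 13.6-fold difference (adjusted p = 1.61e-24, limma, 3 arrays per group). It was 1.54 ± 0.05 higher in PP (adjusted p = 2.17e-16), 1.47 ± 0.05 in BP (adjusted p = 2.79e-16) and 1.18 ± 0.05 in ROSI (adjusted p = 3.46e-15). Rises of 0.73 in TBT, 0.71 in BPA and 0.53 in BBP were also called, with adjusted p from 9.41e-11 to 1.58e-07. With quantile normalization, which forces the same spread on every array, the TBT and BBP differences turned to -0.42 and -0.52 and the BPA difference fell to 0.01. The difference was 0.22 in EB (adjusted p = 0.0559) and 0.08 in DEHP (adjusted p = 0.639), and neither was called. In bulk RNA, fewer cells that express a gene and less of its RNA per cell cannot be told apart. Ordered by level, the groups ran MDI, PP, BP, ROSI, TBT, BPA, BBP, EB, DEHP and DMSO. PP and BP did not differ beyond their spread (adjusted p = 0.687), nor did TBT and BPA (0.917), EB and DEHP (0.766) or DEHP and DMSO (0.639), while each other neighbouring pair was called. The step from BPA to BBP (0.19, adjusted p = 0.0278) was lost in 4 of 6 fits without an array, with adjusted p of up to 0.121. It was also lost in a fit of BPA and BBP alone (adjusted p = 0.0635). The step from BBP down to EB (0.30, adjusted p = 0.000572) turned around with quantile normalization, to -0.54, and was lost in a fit of BBP and EB alone (adjusted p = 0.0544).

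In each of the 9 comparisons of MDI with another group, Hsd11b1 had the smallest p-value of all 19231 entries. Ranked by log2 fold change, it stood between 7 and 36. Glul ranked between 59 and 179 by p-value in the same comparisons. In the authors' deposited table of MDI against DMSO, Hsd11b1 was also ranked 1 by p-value, with a log2 fold change of 3.77 and an adjusted p of 2.03e-24. That table gave Glul a log2 fold change of 2.85 and an adjusted p of 7.5e-19.

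**Figure D1:**
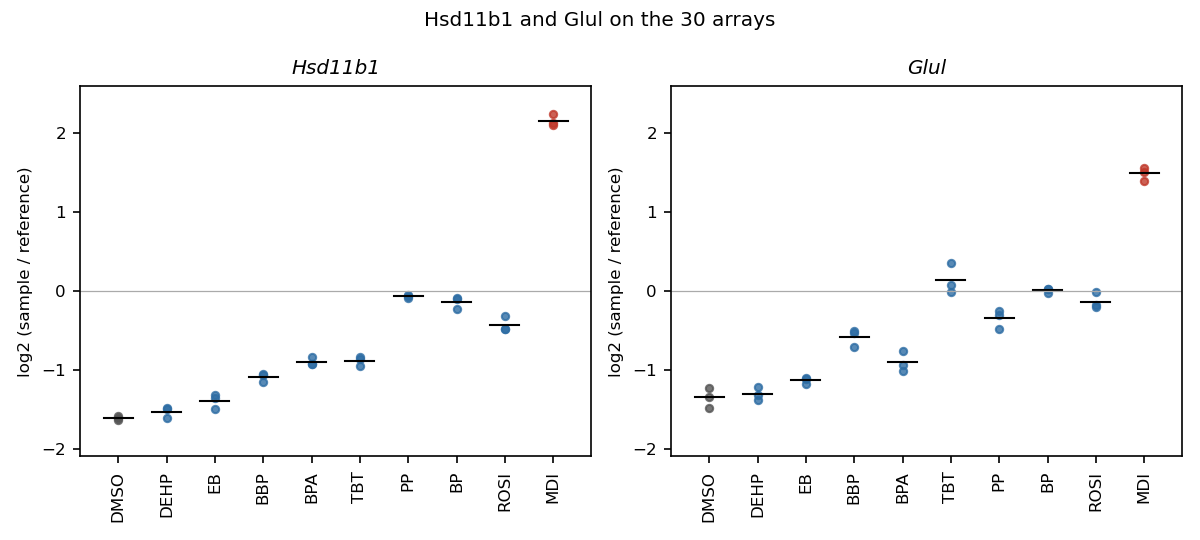
The vertical axes give the log2 ratio of sample over reference of Hsd11b1 (left) and Glul (right), with 1 point per array and a bar at the mean of 3 arrays, in the same group order in both panels. MDI stands alone at means of 2.15 and 1.49, DMSO and DEHP lie lowest in both, and with quantile normalization the rises over DMSO of Hsd11b1 in TBT and BBP and of Glul in BPA turned around.

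Glul, glutamine synthetase, read -1.34, -1.48 and -1.23 in DMSO and 1.40, 1.51 and 1.56 in MDI. Its TBT arrays read 0.36, 0.07 and -0.01, its BP arrays -0.03, 0.02 and 0.03, and its ROSI arrays -0.02, -0.18 and -0.21. All of these stood more than 1 log2 unit above every DMSO array and below every MDI array. The PP arrays read -0.48, -0.25 and -0.31, the BBP arrays -0.71, -0.53 and -0.51, and the BPA arrays -1.02, -0.76 and -0.94. The EB arrays read -1.18, -1.12 and -1.10, and the DEHP arrays -1.22, -1.39 and -1.32. The DEHP arrays overlapped with the DMSO arrays, and the EB arrays lay just above them.

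Glul was 2.85 ± 0.09 (SE) higher in MDI than in DMSO, a 7.19-fold difference (adjusted p = 7.06e-19, limma, 3 arrays per group). It was 1.50 ± 0.09 higher in TBT (adjusted p = 9.65e-13), 1.36 ± 0.09 in BP, 1.22 ± 0.09 in ROSI and 1.01 ± 0.09 in PP. Rises of 0.77 in BBP (adjusted p = 6.63e-07) and 0.45 in BPA (adjusted p = 0.000522) were called as well. With quantile normalization the BBP rise was 0.12 (adjusted p = 0.53) and the BPA difference turned to -0.12 (adjusted p = 0.428). EB (0.22, adjusted p = 0.261) and DEHP (0.04, adjusted p = 0.911) were not called. The order of levels was MDI, TBT, BP, ROSI, PP, BBP, BPA, EB, DEHP and DMSO. Among neighbours in it, MDI exceeded TBT by 1.35 (adjusted p = 8.06e-12) and no other neighbouring pair was called but BBP over BPA. That step of 0.32 (adjusted p = 0.0178) was lost in 4 of 6 fits without an array, with adjusted p of up to 0.101, in a fit of BPA and BBP alone (0.0674) and with quantile normalization (0.0907).

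TBT held different places in the orders of the 2 enzymes, and the pairs of agents given here were chosen after the values were seen. Glul was 0.49 ± 0.09 higher in TBT than in PP (adjusted p = 0.000252), with all 3 TBT arrays above the PP arrays. Hsd11b1 was 0.82 ± 0.05 lower in TBT than in PP (adjusted p = 4.84e-11), with all 3 TBT arrays below. TBT and BPA, which did not differ in Hsd11b1 beyond their spread, differed in Glul by 1.05 ± 0.09 (adjusted p = 2.55e-09). Against ROSI, TBT was 0.46 ± 0.05 lower in Hsd11b1 (adjusted p = 8.01e-07) and 0.28 ± 0.09 higher in Glul (adjusted p = 0.0254). The last difference was lost in a fit of ROSI and TBT alone (adjusted p = 0.128), with array weights (0.0555) and without TBT replicate 1 (0.211), ROSI replicate 2 (0.0864) or ROSI replicate 3 (0.102). The other called differences of this paragraph kept their call under each alternative run for them, which did not include the fold limit. With quantile normalization Hsd11b1 was 0.43 lower in TBT than in BPA (adjusted p = 0.000391).

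Both enzymes are expressed in mature fat cells, and their levels were set beside 15 fat cell markers, such as Adipoq, Fabp4, Plin1 and Pparg. All 15 of 15 markers were higher than in DMSO in MDI, ROSI, TBT, BPA, BBP, BP and PP. In EB 5 of 15 were higher and in DEHP limma called 0 of 15, with 2 of 15 higher at an unadjusted p under 0.05. With quantile normalization, 15 of 15 were still higher in MDI, BP and PP, and 13 in BBP. In ROSI and TBT 14 were then higher and 1, Retn, was lower, in BPA 10 were higher and Retn was lower, and in EB none of the 5 kept its call. The mean of the markers was -2.22 in DMSO, -2.12 in DEHP, -1.91 in EB, -0.84 in BPA and -0.60 in BBP. It was -0.05 in TBT, 0.03 in PP, 0.20 in BP, 0.51 in ROSI and 1.31 in MDI. Over the 10 group means, Hsd11b1 followed the marker mean with r = 0.852 (Spearman 0.939) and Glul with r = 0.924 (Spearman 0.915). Without DMSO and DEHP, the groups farthest from the median marker level, r was 0.832 and 0.9. ROSI had the second highest marker mean, and both PP and BP were higher than ROSI in Hsd11b1, by 0.36 (adjusted p = 2.49e-05) and 0.29 (adjusted p = 0.000263). Of 14 preadipocyte and fibroblast markers measured, 11 were lower and 1 was higher in MDI than in DMSO, and their mean fell from 0.23 in DMSO to -0.40 in MDI. The means of 7 macrophage markers stayed between -0.02 and 0.17 in all groups, and those of 2 endothelial markers between -0.08 and 0.06. The groups share the reference and an array platform, and the part of fat cell content in the levels of the 7 genes was not tested.

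**Figure D2:**
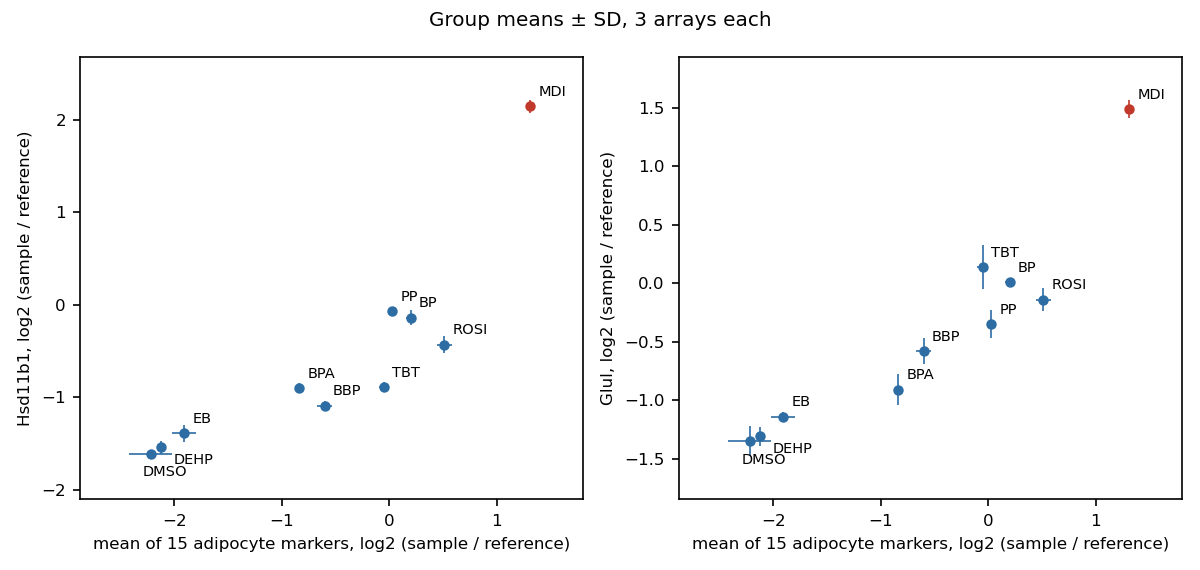
Each point is a group mean of 3 arrays with SD bars: the horizontal axis is the mean log2 ratio of 15 fat cell markers, and the vertical axis is the log2 ratio of Hsd11b1 (left) or Glul (right). MDI is at 1.31 on the marker axis and at 2.15 for Hsd11b1, while ROSI, at 0.51 on the marker axis, lies below PP and BP for Hsd11b1.

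Nr3c1, the receptor itself, read -0.01, 0.07 and -0.05 in DMSO and 0.16, 0.21 and 0.22 in MDI. The arrays of these groups did not overlap, and lay close together. It was 0.20 ± 0.05 higher in MDI (adjusted p = 0.00219), a 1.15-fold difference, and the adjusted p over the alternatives lay between 0.000935 and 0.0462. Both probes gave that rise, at 0.20 and 0.19. The BPA arrays read 0.14, 0.21 and 0.20, a rise of 0.18 ± 0.05 (adjusted p = 0.00968) that was no longer called in a fit of BPA and DMSO alone (adjusted p = 0.0557) or without DMSO replicate 3 (0.0513). The EB arrays read 0.17, 0.12 and 0.25. In EB the probes disagreed, with rises of 0.05 (adjusted p = 0.787) and 0.31 (adjusted p = 0.0488), and their average of 0.18 was not called (adjusted p = 0.0862). In the other groups the arrays read between -0.08 and 0.15, and none of these groups was called against DMSO. Nr3c1 covered a range of group means of 0.23, and no neighbouring pair in its order was called.

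Fkbp5, the cochaperone, read 0.16, 0.18 and 0.03 in DMSO and 0.00, 0.02 and -0.06 in MDI. The groups came close without overlapping, and DMSO replicate 3 stood nearest to MDI. Fkbp5 fell by 0.14 on the log2 scale in MDI (SE 0.05, adjusted p = 0.0456), and this call was lost in 5 of 6 fits that left out an array, with adjusted p of up to 0.179. Falls were also called in BP (-0.20, adjusted p = 0.00845), BBP (-0.19, adjusted p = 0.0256) and ROSI (-0.16, adjusted p = 0.0222). They were lost in 1, 4 and 4 of 6 such fits, with adjusted p of up to 0.0566, 0.149 and 0.13. The BP arrays read -0.07, -0.05 and -0.11, and the BBP arrays -0.06, -0.04 and -0.10, all below the DMSO arrays. PP, at 0.15, 0.22 and 0.09, and EB, at 0.10, 0.01 and 0.24, overlapped with DMSO. No call of Fkbp5 was kept under every alternative, the fold limit aside.

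Tsc22d3, the anti-inflammatory receptor target, read 0.31, 0.38 and 0.14 in DMSO and 0.27, 0.40 and 0.32 in MDI. The groups overlapped, and the difference of 0.05 ± 0.06 was not called (adjusted p = 0.544). It was lower than DMSO in 5 groups. The PP arrays read -0.08, -0.12 and -0.25, the BP arrays -0.06, -0.22 and -0.11, and the BPA arrays -0.12, -0.11 and -0.12. The TBT arrays read 0.03, -0.04 and 0.01, and the ROSI arrays 0.10, 0.06 and -0.05. Each of these 15 arrays lay below the lowest DMSO array. Tsc22d3 fell by 0.42 in PP (adjusted p = 7.46e-06), by 0.40 in BP (1.83e-05), by 0.39 in BPA (3.89e-05), by 0.28 in TBT (0.00116) and by 0.24 in ROSI (0.00324), each with an SE of 0.06. All 5 falls lay under a fold limit of 0.5 on the log2 scale, and they were kept under every other alternative run. BBP (-0.17), DEHP (-0.15) and EB (-0.04) were not called.

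Per1, the clock repressor, read 0.18, 0.14 and 0.11 in DMSO and 0.00, 0.06 and -0.01 in MDI. The MDI arrays lay below the DMSO arrays, but the difference of -0.12 ± 0.06 was not called (adjusted p = 0.132). It was lowest in BPA, at -0.26, -0.50 and -0.33, and in TBT, at -0.35, -0.34 and -0.35. ROSI, at -0.09, -0.25 and -0.21, had the next lowest mean. Per1 fell by 0.51 in BPA (adjusted p = 1.54e-06), by 0.49 in TBT (adjusted p = 1.05e-06) and by 0.32 in ROSI (adjusted p = 0.000197), each with an SE of 0.06, and these calls were kept under every alternative but the fold limit, which the falls in TBT and ROSI did not reach. PP, at 0.08, 0.02 and 0.08, and BP, at 0.06, 0.04 and 0.02, stayed near the reference. The groups with low Tsc22d3 were thus not all low in Per1: TBT was 0.41 below PP in Per1 (adjusted p = 3.7e-05) and 0.39 below BP (adjusted p = 8.4e-05), while in Tsc22d3 the TBT arrays lay above the PP and BP arrays, by 0.15 and 0.13, and were not called (adjusted p = 0.129 and 0.214).

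Sgk1, the kinase, read 0.06, 0.05 and -0.12 in DMSO and -0.15, -0.33 and -0.20 in MDI. All MDI arrays were below the DMSO arrays, narrowly for DMSO replicate 3. It fell by 0.22 in MDI (SE 0.08, adjusted p = 0.0221), a call lost without DMSO replicate 1 (adjusted p = 0.0919), DMSO replicate 2 (0.0859) or MDI replicate 2 (0.123). The ROSI arrays read -0.18, -0.45 and -0.37, the lowest of the 10 groups, with a fall of 0.33 (adjusted p = 0.00109) that was kept under every alternative but the fold limit. Falls of 0.24 in BBP, 0.23 in TBT and 0.22 in BP were called with adjusted p of 0.0404, 0.024 and 0.0344. They were lost in 4, 3 and 5 of 6 fits without an array, with adjusted p of up to 0.175, 0.12 and 0.135. EB, at 0.14, 0.03 and 0.30, and DEHP, at 0.11, -0.09 and 0.16, were the highest groups and were not called against DMSO. Over the 10 group means Sgk1 ran against the fat cell markers (r = -0.827, Spearman -0.661; r = -0.742 without DMSO and DEHP). The promoter with the full receptor element belongs to 1 of the 6 starts listed for this gene, and which of them its probe reads was not examined.

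**Figure D3:**
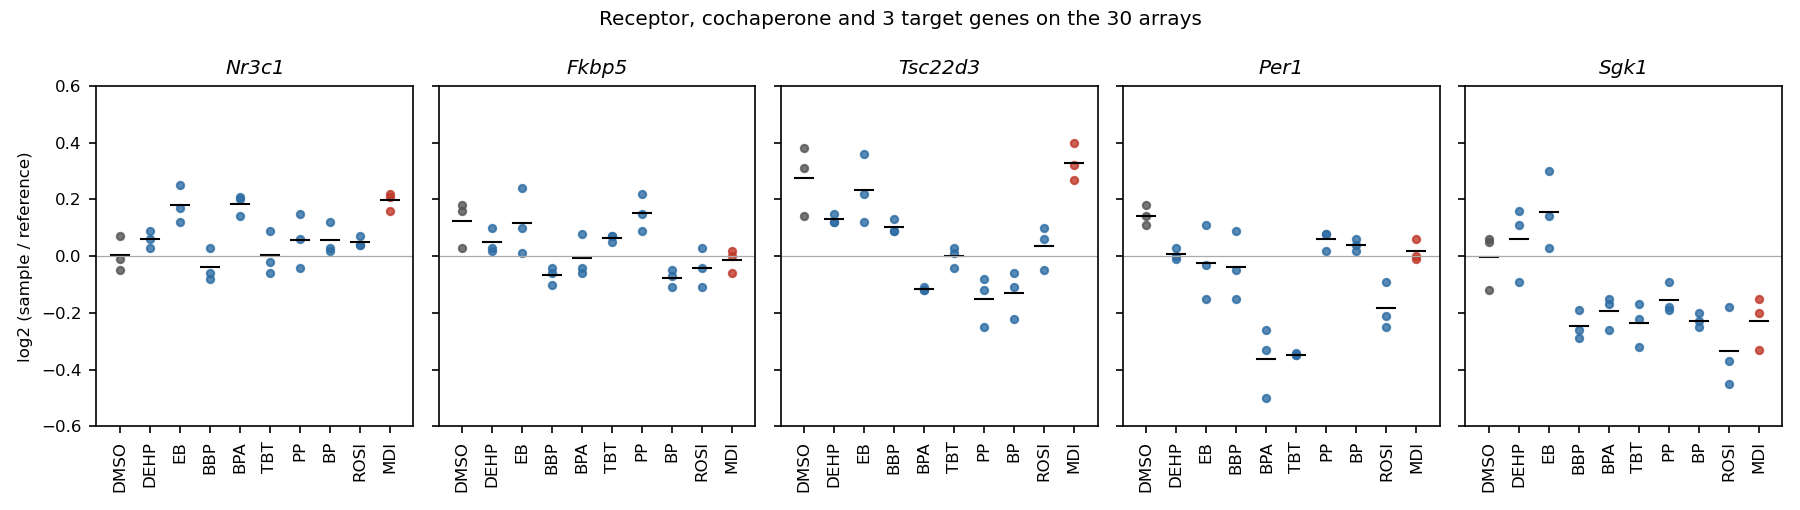
The vertical axis, shared by the panels, gives the log2 ratio of sample over reference of Nr3c1, Fkbp5, Tsc22d3, Per1 and Sgk1, with 1 point per array and a bar at the mean of 3 arrays. All values lie between -0.50 and 0.40; Tsc22d3 in MDI and DMSO overlaps, and Per1 in BPA and TBT lies lowest.

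The other comparisons with DMSO gave these counts of the 7 genes, each beside the share of all entries called. In ROSI 2 were higher and 4 lower (all entries, 16.5% and 14.3%), and in TBT 2 and 3 (14.1% and 10.6%). In BPA 3 were higher and 2 lower (12.3% and 6.97%), in BP 2 and 3 (12.9% and 8.73%), in PP 2 and 1 (12% and 8.24%), and in BBP 2 and 2 (6.9% and 2.35%). In EB and DEHP limma called 0 of the 7, where it called 0.681% and 0.0156% of all entries. At an unadjusted p under 0.05, 4 were higher and 1 was lower in EB, and 2 were lower in DEHP (Per1 and Tsc22d3). The shares of all entries above are at the adjusted threshold. None is given at the unadjusted one, so these last counts have no background to be read against.

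MDI was also set against each agent, which asks how the hormone cocktail differed from the other treatments in the same genes. Hsd11b1 was higher in MDI than in each of the 8 agents, by 2.23 (PP) to 3.69 (DEHP), and Glul by 1.35 (TBT) to 2.80 (DEHP). Tsc22d3 was higher in MDI than in 7 of 8 agents, by 0.48 against PP, 0.46 against BP, 0.44 against BPA, 0.33 against TBT, 0.29 against ROSI, 0.23 against BBP and 0.20 against DEHP. With quantile normalization it was no longer called against ROSI (0.18, adjusted p = 0.0791), BBP (0.10, 0.295) or DEHP (0.08, 0.457). Against EB the difference was 0.09 and not called. Per1 was higher in MDI than in BPA by 0.38, than in TBT by 0.37 and than in ROSI by 0.20, and the call against ROSI was lost in 3 of 6 fits without an array (adjusted p of up to 0.114).

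Nr3c1 was higher in MDI than in BBP by 0.23 and than in TBT by 0.20. It was higher by 0.14 than in each of ROSI, DEHP, BP and PP, and those 4 calls were lost in 4 or 5 of 6 fits without an array. Of all its calls against agents, the call against BBP was kept under every alternative but the fold limit (adjusted p of up to 0.0268). Sgk1 was lower in MDI than in EB by 0.38 ± 0.08 and than in DEHP by 0.28 ± 0.08, and Fkbp5 was lower than in PP by 0.17 ± 0.05. In all, MDI was higher than ROSI and TBT in 5 genes each, where 10.8% and 15.7% of all entries were higher. It was higher than BPA, BBP, DEHP, BP and PP in 4 genes each (17.2%, 17.5%, 19.2%, 15.4% and 15.2% of entries) and than EB in 2 (19.2%). It was lower than DEHP, EB and PP in 1 gene each (17.8%, 17.6% and 12.7%).

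**Figure D4:**
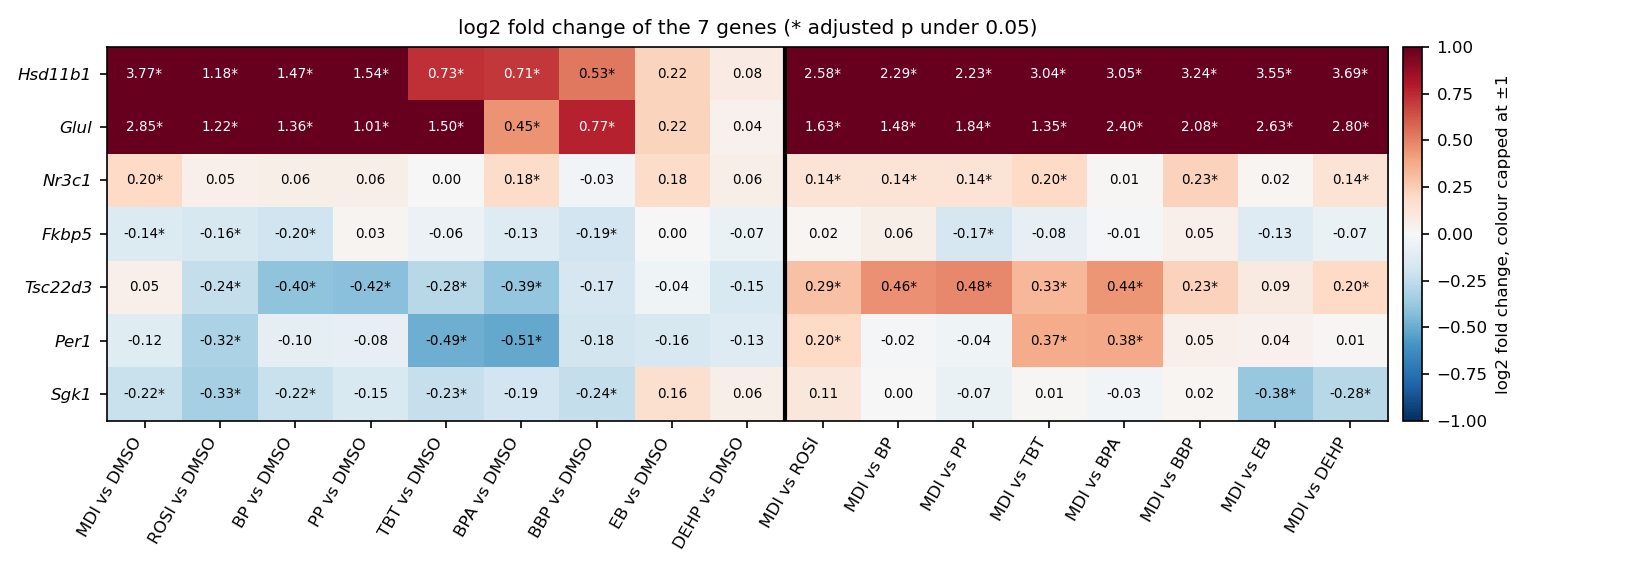
Each cell gives the log2 fold change of a gene (row) in a comparison (column), first group minus second, with a star where the adjusted p was under 0.05 and colours capped at 1 on either side. Hsd11b1 and Glul are positive throughout and Tsc22d3 is negative against DMSO in PP, BP, BPA, TBT and ROSI; with quantile normalization Hsd11b1 turned negative in TBT and BBP against DMSO, and Glul in BPA.

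The wider pathway was read from lists of known genes. Of 36 other genes known to be raised by the glucocorticoid receptor, 21 were higher and 6 lower in MDI than in DMSO. Their median log2 fold change was 0.37 against 0.002 over all entries, of which 20.1% were higher and 18.3% lower. With quantile normalization 18 of the targets were higher and 7 lower, with a median of 0.26. Klf15, a receptor-induced regulator of amino acid breakdown, was 2.79 ± 0.07 higher in MDI than in DMSO and 2.22 ± 0.07 higher than in ROSI. Sult1a1, a sulfotransferase, was 1.64 ± 0.07 and 1.41 ± 0.07 higher in the same comparisons. Lcn2, which encodes the secreted protein lipocalin, rose by 0.89 in MDI against DMSO and was 0.37 lower in ROSI (ROSI minus DMSO, -0.37), a gap of 1.25. Lpin1, a phosphatidate phosphatase, and Tgm2, a transglutaminase, rose by 1.36 and 1.85 in MDI and by 0.91 and 1.21 in ROSI. Pck1, the glyceroneogenesis enzyme, was 4.54 higher than DMSO in MDI and 4.39 in ROSI, and the difference between these groups was not called (0.15, adjusted p = 0.34). Pdk4, which restrains pyruvate oxidation, was 1.62 higher in ROSI than in DMSO, and its difference of -0.17 in MDI was not called (adjusted p = 0.0614). The 6 targets lower in MDI than in DMSO were Mt1, Mt2, Cebpd, Anxa1, Mertk and Thbd.

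In ROSI, to which IBMX, dexamethasone and insulin were not added, 13 of the 36 receptor targets were higher and 9 lower than in DMSO. The median was -0.01 against 0.004 over all entries, of which 16.5% were higher and 14.3% lower. Klf15 (0.57) and Sult1a1 (0.22) were among the 13, and with quantile normalization their differences turned to -0.14 and -0.16. MDI set directly against ROSI had 20 higher and 3 lower (Mt1, Pdk4 and Gadd45g), where 10.8% and 9.47% of all entries were higher and lower. The targets had a median of 0.22 against -0.002 over all entries. With quantile normalization 14 were higher and 3 lower, with a median of 0.15. In the other groups against DMSO, the targets higher and lower were 16 and 4 in TBT, 13 and 6 in PP, 12 and 4 in BP, 10 and 5 in BPA, and 8 and 2 in BBP. Of all entries, 14.1% and 10.6% were higher and lower in TBT, 12% and 8.24% in PP, 12.9% and 8.73% in BP, 12.3% and 6.97% in BPA, and 6.9% and 2.35% in BBP. With quantile normalization the targets higher and lower were 14 and 5 in TBT, 10 and 12 in PP, 9 and 8 in BP, and 4 and 4 in both BPA and BBP. In EB 1 target was higher, a call lost with quantile normalization, and in DEHP limma called 0 of the 36. At an unadjusted p under 0.05, 4 were higher and 1 lower in DEHP, with no share of all entries given at that threshold. The part of fat cell content in the counts of these targets was not tested.

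Of 18 genes known to be repressed by glucocorticoids, mostly chemokines, cytokines and proteases, 9 were lower and 1 was higher in MDI than in DMSO (median -0.22). In ROSI 10 were lower and none was higher, also at an unadjusted p under 0.05 (median -0.27). Among all entries, 18.3% were lower and 20.1% higher in MDI, and 14.3% and 16.5% in ROSI. Ccl2 and Ccl7, which attract monocytes, were 1.06 and 0.98 lower in MDI than in ROSI, and fell by 1.79 and 1.27 in MDI against DMSO. Csf1, a macrophage growth factor, and Vcam1, an adhesion molecule, fell by 0.83 and 0.66 in MDI and by 0.51 and 0.49 in ROSI. Mmp13, a collagenase, was the gene that rose in MDI, by 0.74 ± 0.08, and it was 0.07 higher in ROSI, which was not called. MDI against ROSI had 7 higher and 4 lower (10.8% and 9.47% of all entries), so the list had no common direction there (median -0.04). In MDI and ROSI 11 and 12 of 14 fibroblast markers were lower than in DMSO, and their part in these counts was not tested.

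Among 10 genes of steroid supply, 5 were higher and 2 lower in MDI than in DMSO, and 5 and 1 in ROSI. The shares of all entries were 20.1% and 18.3% in MDI, and 16.5% and 14.3% in ROSI. H6pd, the enzyme of the endoplasmic reticulum that makes the NADPH used by the Hsd11b1 product, was 0.72 ± 0.06 higher in MDI and 0.36 ± 0.06 higher in ROSI, and MDI exceeded ROSI by 0.35 (adjusted p = 3.32e-05). With quantile normalization that gap was 0.11 and not called (adjusted p = 0.212). Slc37a4, the glucose 6-phosphate transporter that supplies H6pd, was 0.31 ± 0.05 higher in MDI, and its rise of 0.13 in ROSI was not called. The 17 beta-hydroxysteroid dehydrogenase relatives Hsd17b12, Hsd17b7 and Hsd17b4, which also serve fatty acid, cholesterol or peroxisomal metabolism, rose by 1.50, 0.88 and 0.63 in MDI and by 1.80, 1.00 and 0.82 in ROSI. Hsd17b11 fell by 0.29 in MDI and rose by 0.42 in ROSI.

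Of 20 chaperones and coregulators of the receptor, 4 were higher and 5 lower in MDI than in DMSO, and 6 and 2 in ROSI. Of all entries, 20.1% were higher and 18.3% lower in MDI, and 16.5% and 14.3% in ROSI. With quantile normalization the count of lower genes in MDI was 2, without Ppid. Nrip1, a nuclear receptor corepressor, and Ncoa1, a coactivator, rose by 0.92 and 0.84 in MDI and by 0.56 and 0.70 in ROSI. The cochaperones Bag1 and St13 rose by 0.85 and 0.23 in MDI and by 0.98 and 0.28 in ROSI. Ppid, a cyclophilin of the receptor complex, fell by 0.16 in MDI (adjusted p = 0.0577 with quantile normalization). Hspa4 and Ptges3 did not pass in MDI against DMSO (-0.03 and -0.09), and both were lower in MDI than in ROSI (-0.27 and -0.14).

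Of 13 relatives of the 7 genes that were measured, 3 were higher and 5 lower in MDI than in DMSO, and 4 and 4 in ROSI. Among all entries, 20.1% were higher and 18.3% lower in MDI, and 16.5% and 14.3% in ROSI. Sgk3 rose by 0.86 in MDI and by 0.78 in ROSI, where Sgk1 fell in both. Sgk2 was 1.59 ± 0.08 higher in ROSI than in DMSO and 1.44 lower in MDI than in ROSI (MDI minus ROSI, -1.44), with a difference of 0.15 in MDI against DMSO that was not called. Tsc22d1 rose by 0.44 in MDI and by 0.28 in ROSI. Fkbp2, an immunophilin of the endoplasmic reticulum, rose by 0.60 in MDI and by 0.21 in ROSI, while Fkbp7 and Fkbp11 fell by 0.16 and 0.35 in MDI and both fell by 0.39 in ROSI. Fkbp3 was 0.18 below ROSI in MDI (MDI minus ROSI, -0.18), a call lost with quantile normalization (adjusted p = 0.0737).

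Of 13 other clock genes, 3 were higher in MDI than in DMSO, and 3 were higher and 1 lower in ROSI. The shares of all entries higher and lower were 20.1% and 18.3% in MDI and 16.5% and 14.3% in ROSI. Nfil3, a repressor of the clock's output, rose by 0.47 in MDI, and Cry2 and Tef rose by 0.27 and 0.25. Nr1d1 was at -0.13 and not called. MDI was higher than ROSI in 4 of the clock genes, Nfil3 (0.49), Bhlhe40 (0.23), Arntl (0.17) and Rora (0.11), where 10.8% of all entries were higher. With quantile normalization Nfil3 kept its call, and Bhlhe40 (adjusted p = 0.0921), Arntl (0.0729) and Rora (0.0503) did not. Of 17 other genes of glutamine and glutamate handling, 4 were higher and 4 lower in MDI than in DMSO, and 6 and 3 in ROSI, against the shares of all entries of 20.1%, 18.3%, 16.5% and 14.3%. With quantile normalization 2 were lower in MDI. Gpt, alanine aminotransferase, rose by 2.96 ± 0.11 in MDI and by 2.38 ± 0.11 in ROSI. The transporters Slc1a5 and Slc1a3 rose by 0.89 and 0.58 in MDI, and Gclm, a subunit of the enzyme that starts glutathione synthesis, by 0.33. In ROSI Slc1a5 rose by 0.97, Got1, an aspartate aminotransferase, by 0.51 and Gclc by 0.44, while Slc1a3 was at -0.14 and not called.

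**Figure D5:**
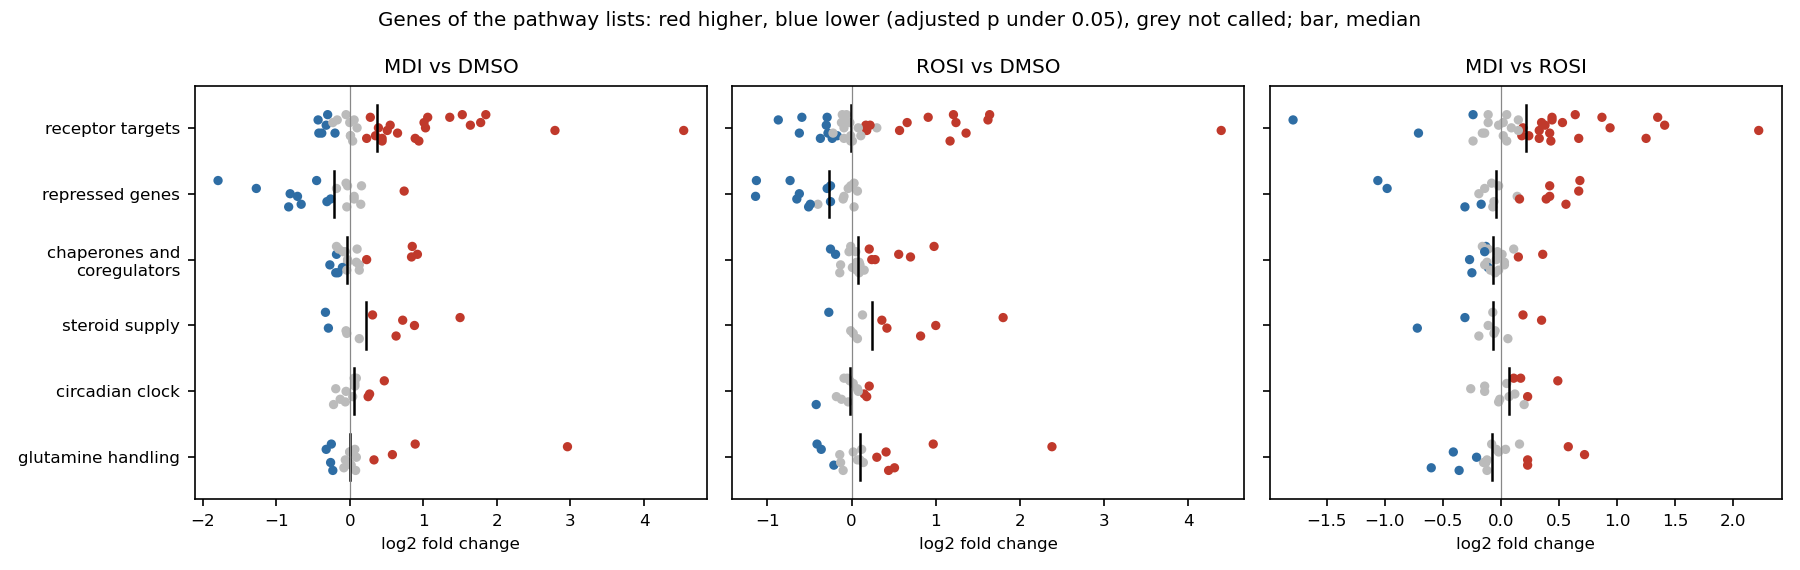
Each point is a measured gene of 6 of the 7 lists, with its log2 fold change on the horizontal axis (first group minus second), red where higher and blue where lower at an adjusted p under 0.05 and grey where not called; the bar is the median of the list. The receptor targets have medians of 0.37 in MDI against DMSO, -0.01 in ROSI against DMSO and 0.22 in MDI against ROSI; in the middle panel Klf15 and Sult1a1 turned negative with quantile normalization.

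Genes whose pattern over the 10 group means was most like each of the 7 were found by Pearson correlation, as a description. For Hsd11b1 they were Nt5dc2 (r = 0.989), Sh3glb2 (0.986) and Bphl (0.986), of which Sh3glb2 was 1.51 higher in MDI than in DMSO, Bphl 0.53 and Nt5dc2 0.38. For Glul they were the cell cycle inhibitor Cdkn2c (0.987), the growth factor Gdf5 (0.984) and Fasn, fatty acid synthase (0.981), which were 2.00, 1.90 and 1.98 higher in MDI. For Nr3c1 they were Gm6559 (0.918), Usp1 (0.915) and Slc35d2 (0.905), and for Fkbp5 Il16 (0.896), Rfpl4b (0.873) and Slc35g3 (0.849). The group means of these genes spanned only 0.07 to 0.20, where the median SD of an entry over the DMSO arrays was 0.0679. For Tsc22d3 they were Klhdc10 (0.93), Trmt10b (0.919) and Tspan32 (0.916), and for Per1 Crip2 (0.958), Ptgds (0.931) and Clec3b (0.919). For Sgk1 they were Ltbp1 (0.955), Lrp12 (0.954) and Snx21 (0.946). Between the 7 genes themselves, Hsd11b1 and Glul had r = 0.927 over the 10 groups, Fkbp5 and Sgk1 0.656, and Tsc22d3 and Per1 0.396. Sgk1 and Glul had r = -0.638.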

How the data were processed

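RNA of 3T3-L1 cells was measured on 30 two-colour Agilent arrays, 3 in each of 10 groups taken from the labels. Deposited probe values are log2 ratios of reference over sample. The authors worked with limma, per the submitters' processing notes (no version given), and background correction, normalization, filtering and the log base are not given in the sources used here. The base was read as 2 because group differences matched the log2 fold changes of the authors' deposited tables to within 5e-08 with the sign turned, in the 8 tables used. Those tables also hold adjusted p-values, deposited by the authors without naming the adjustment. The sign was turned to sample over reference.

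Of 23460 probes, 26 control probes were left out. Probes of a gene were averaged, which gave 19231 entries (14763 genes named from the supplied probe table, where 18966 probes had a symbol, and 4468 unnamed probes). No filter on dim probes was applied. A mean for each group was fitted to all 30 arrays in limma 3.58.1 (R 4.3.3) with eBayes (20 residual and 3.56 prior degrees of freedom), tested two-sided and adjusted over all entries within each comparison (Benjamini and Hochberg). The procedure was tested on simulated data. Of 45 pairwise comparisons fitted, 17 are reported in full. Promoter sequences are RefSeq's (GRCm38.p6), and CCAAT was added to the motifs after the sequences were seen. Figures were drawn with matplotlib 3.10.9 in Python 3.11.15.

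The members and lists were chosen with earlier results of these data known. Genes named beside the 7 are, for each of the 7, the 3 most correlated over group means, and from each list up to 4 with the smallest p in MDI against DMSO and up to 4 in MDI against ROSI. Mt1, Mt2, Cebpd, Anxa1, Mertk, Thbd, Gadd45g and Retn were named after their values were seen. Alternatives were centring, quantile normalization, robust eBayes, array weights, a replicate block, 1 probe per gene, the compared groups alone and leaving out each array. A fold limit of 0.5 on the log2 scale was another. With 1 probe per gene, Nr3c1 was read by the probe with the larger mean absolute ratio, and its other probe was not counted. Replicate numbers of DMSO and an agent deviated together in all 3 pairs in PP against DMSO only (correlations 0.127, 0.207 and 0.166), so the numbers pair samples there by the criterion of 0.1.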

Additional observations from a re-analysis of the deposited data

How the results depend on the processing

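Of 119 fold changes (7 genes in 17 comparisons), 68 were called, and 1547 alternative values were computed. Of these, 1453 kept their direction and side of the threshold, 79 lost a call, 12 gained one and 3 reversed. All 3 reversals came with quantile normalization: Hsd11b1 in TBT (-0.42) and BBP (-0.52) and Glul in BPA (-0.12), each against DMSO. By construction that method gives each array the same tails, and 0.967% of entries lay below -1 on the DMSO arrays against 0.0624% in TBT, 0.125% in BBP and 0.26% in BPA. It moved the median of all entries by at most 0.0179. Of the 15 calls each of Hsd11b1 and Glul, 12 and 13 were kept under every alternative other than the fold limit, as were 9 of 12 for Tsc22d3, 5 of 6 for Per1, 3 of 7 for Sgk1, 2 of 8 for Nr3c1 and 0 of 5 for Fkbp5.

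The number of genes called was 3 with quantile normalization in MDI against DMSO, ROSI and DEHP and in BPA against DMSO. With a fold limit it was 2 in MDI, ROSI, TBT, BPA, BBP and BP against DMSO and in MDI against ROSI, TBT, BPA, BBP, DEHP, BP and PP. It was 2 in BBP against DMSO when only those groups were fitted. With 1 probe per gene it was 1 in EB against DMSO, Nr3c1, whose other probe was not called there (adjusted p = 0.787). Leaving out 1 array gave 2 to 5 in BBP, 3 to 5 in BP and MDI and 0 to 2 in EB, each against DMSO, and 3 to 5 in MDI against DEHP, PP and ROSI.

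The replicate block gave 1 gene in EB against DMSO, where Hsd11b1 passed (adjusted p = 0.037). It also gained Per1 in BBP (0.0443), lost Fkbp5 in MDI (0.0533), both against DMSO, and changed no other call. Between agents, 17 differences gave 204 alternative values, chosen after seeing the data: 185 were kept, 17 lost a call and 2 reversed with quantile normalization, Hsd11b1 in TBT against BPA (-0.43) and in BBP against EB (-0.54). Where no cause is shown by construction, the cause was not tested. No depth is known for arrays, and signal over background was not used here.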
